A study of Homo sapiens with 9 samples.

Results

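Of the 24037 peaks in the QKI-5 HITS-CLIP list, 973 (4.05%, Wilson 95% interval 3.81 to 4.30%) lay in an intron with their centre 1 to 250 nt downstream of a 5′ splice site, the site at which an exon ends and its intron begins. A peak was counted when it lay inside an intron of a protein-coding transcript with the basic tag of GENCODE on its own strand, touched no exon of such transcripts, and had the preceding 5′ splice site as its nearest exon edge. These peaks are called the downstream peaks here. They fell in 674 genes and behind 779 distinct 5′ splice sites, of which 773 were followed by GT and 6 by GC. The strands were about equally represented, with 491 downstream peaks reading along plus and 482 along minus. The choice used only position, so height, sequence and the kind of exon were free to vary.

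QKI-5 binding was mapped in mesHMLE cells, a mesenchymal line derived from HMLE human mammary epithelial cells. According to the methods of the study they arose by prolonged exposure to TGF-β1 and were kept without it afterwards, and EMT in HMLE cells was induced with 2.5 ng/ml for at least 14 days. Crosslinking used 600 mJ/cm2 of ultraviolet light, and an antibody specific to QKI-5 recovered the protein with its RNA. The data set comprised 7 immunoprecipitation libraries (3 of the QKI monomer, 3 of the dimer and 1 of the dimer made with SuperScript IV) and 2 size-matched input libraries, all technical replicates of 1 cell line. The libraries were pooled before peaks were called against the input, so each peak has 1 height and no spread between replicates, and the list does not show the read depth behind it. Peaks are not replicates of a condition: the tests below compare shares of peaks, exons or windows, and their intervals cover counting error only.

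QKI-5 is the nuclear isoform of Quaking, an RNA-binding protein of the STAR family. It recognises ACUAAC, written here as ACTAAC in the letters of the genome, with the shorter core UAAC or UAAU nearby as a further contact. The intron just behind an exon is a known place of splicing control, because the U1 particle recognises the 5′ splice site there and proteins bound beside it can change how often the exon is used. RBFOX, MBNL, CELF and hnRNP proteins bind the same stretch of intron and have their own motifs.

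The sequences below are those of 14 downstream peaks in genes whose splicing the study examined by RT-PCR, together with 3 tall peaks, on hg19 and read 5′ to 3′ along the transcript. Whether the peaks lay beside the exons that the study tested was not examined. The study lists its events in CD47 and DEPDC1, and in ADD3, EXOC1 and NUMB, as ones where QKI causes exon exclusion. Over all exons that changed strongly on QKI-5 knockdown, however, the study tied inclusion by QKI to binding in the downstream intron. It tied skipping to binding in the exon or just before its 3′ splice site. Capitals mark ACTAAC or ACTAAT. Of the 13 genes taken from the study, 8 had a downstream peak (CD47 3, CLSTN1 3, MYO18A 3, MARK3 2, and DEPDC1, MPRIP, MYOF and NIN 1 each). ADD3, EXOC1, NUMB, CSNK1G3 and NFYA had 0. Among all coding genes with a peak, 674 of 4542 (14.8%) had a downstream peak. The study chose its RT-PCR events partly by predicted QKI-5 binding, and took MPRIP, NIN and MYOF from a list that used its QKI-5 HITS-CLIP targets. The 8 of 13 is therefore no independent support. The peak of NASP was the tallest of those with the most ACTAAC sites, and the peaks of SBF1 and NAV2 were chosen after their values were seen, for 3 QKI sites in a single peak and for a 9 nt exon. Exon numbers are those of the canonical transcript where it uses the splice site.
CD47, intron after exon 10, chr3:107768339-107768404, minus strand: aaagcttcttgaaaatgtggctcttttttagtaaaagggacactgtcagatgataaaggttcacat
CD47, intron after exon 9, chr3:107769329-107769414, minus strand: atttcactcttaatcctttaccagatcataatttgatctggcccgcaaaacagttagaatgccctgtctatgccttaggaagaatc
DEPDC1, intron after exon 8, chr1:68947629-68947692, minus strand: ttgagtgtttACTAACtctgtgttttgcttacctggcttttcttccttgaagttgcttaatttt
CLSTN1, intron after exon 4, chr1:9815006-9815056, minus strand: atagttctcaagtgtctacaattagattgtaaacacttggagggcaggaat
CLSTN1, intron after exon 11, chr1:9797283-9797442, minus strand: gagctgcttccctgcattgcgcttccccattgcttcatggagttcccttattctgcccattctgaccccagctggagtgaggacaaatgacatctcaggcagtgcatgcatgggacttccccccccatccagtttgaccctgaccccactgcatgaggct
CLSTN1, intron after exon 11, chr1:9797445-9797492, minus strand: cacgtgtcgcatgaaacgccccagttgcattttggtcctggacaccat
MARK3, intron after exon 16, chr14:103964881-103964951, plus strand: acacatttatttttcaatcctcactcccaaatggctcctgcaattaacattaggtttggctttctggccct
MARK3, intron after exon 16, chr14:103965046-103965114, plus strand: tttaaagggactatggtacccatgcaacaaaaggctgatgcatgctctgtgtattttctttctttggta
MPRIP, intron after exon 15, chr17:17064672-17064790, plus strand: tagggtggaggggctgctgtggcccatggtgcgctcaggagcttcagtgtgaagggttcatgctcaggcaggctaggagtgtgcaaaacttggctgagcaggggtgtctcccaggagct
MYO18A, intron after exon 40, chr17:27412397-27412469, minus strand: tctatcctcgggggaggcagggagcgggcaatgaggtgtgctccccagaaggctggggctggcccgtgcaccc
MYO18A, intron after exon 11, chr17:27443191-27443243, minus strand: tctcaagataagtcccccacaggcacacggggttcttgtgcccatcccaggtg
MYO18A, intron after exon 10, chr17:27444778-27444861, minus strand: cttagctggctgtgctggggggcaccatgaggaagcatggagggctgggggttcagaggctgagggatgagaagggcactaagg
MYOF, intron after exon 17, chr10:95152435-95152556, minus strand: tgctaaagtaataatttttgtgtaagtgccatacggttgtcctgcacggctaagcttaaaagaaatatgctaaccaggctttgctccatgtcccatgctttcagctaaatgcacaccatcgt
NIN, intron after exon 18, chr14:51222959-51223053, minus strand: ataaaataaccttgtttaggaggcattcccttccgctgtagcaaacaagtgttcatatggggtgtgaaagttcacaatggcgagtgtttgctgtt
NASP, intron after exon 6, chr1:46074199-46074309, plus strand: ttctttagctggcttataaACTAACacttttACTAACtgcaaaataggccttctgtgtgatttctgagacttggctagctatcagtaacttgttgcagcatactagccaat
SBF1, intron after exon 29, chr22:50895261-50895458, minus strand: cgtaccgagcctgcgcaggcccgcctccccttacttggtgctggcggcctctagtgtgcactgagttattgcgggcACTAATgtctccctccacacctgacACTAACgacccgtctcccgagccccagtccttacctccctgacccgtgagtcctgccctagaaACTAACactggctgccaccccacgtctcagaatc
NAV2, intron after exon 26, chr11:20104158-20104324, plus strand: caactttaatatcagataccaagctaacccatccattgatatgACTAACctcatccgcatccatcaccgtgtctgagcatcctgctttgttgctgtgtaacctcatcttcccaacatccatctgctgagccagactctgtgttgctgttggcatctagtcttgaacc

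Of the 15 peaks in the genes of the study, only that of DEPDC1 held ACTAAC, at 47 nt from the splice site, and none held ACTAAT. In CD47, the surface protein through which cells signal to macrophages not to engulf them, peaks stood behind both small exons near the end of the coding sequence. The peak behind the 33 nt exon had a height of 107 and was centred 95 nt from it; those behind the 25 nt exon had heights of 86 and 67 and were centred 166 and 54 nt from it. Both exons were annotated as cassette exons, and each also had a peak in the 250 nt before it. In MYO18A, an unconventional myosin, a peak of height 214 stood behind a 45 nt cassette exon, while the others, of heights 30 and 14, stood behind exons without a skipping transcript in the annotation. The peaks of MARK3, a kinase of cell polarity, had heights of 27 and 24, both behind a 27 nt cassette exon. NIN, a centrosomal protein, had a peak of height 63 behind a 2139 nt cassette exon, and MYOF, a membrane repair protein, had a peak of height 49 behind a 39 nt cassette exon. The remaining heights were 28 in DEPDC1, 25, 23 and 12 in CLSTN1, and 18 in MPRIP, against a median of 24 over all downstream peaks.

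The first comparison asked on which side of an exon QKI-5 peaks stood. In the 250 nt of intron on the other side, before the 3′ splice site of an exon, there were 705 peaks, called the upstream peaks. The ratio of 973 to 705 was 1.38, so that 58.0% of the 1678 peaks beside exons were downstream (exact binomial test, two-sided, p = 6.51e-11, adjusted exact p = 1.46e-10 over 9 comparisons). Side is what the rule used to set these peaks apart, and the test took an equal split as its expectation and counted neighbouring peaks singly. Its p-value is therefore no independent support. With 1 peak per intron end the ratio was 1.41, and with first introns left out it was 1.2. A lean to the 5′ side of introns was not particular to this stretch. Among peaks centred beyond 250 and up to 5000 nt from the nearest splice site, called the mid-intron peaks, 5219 of 9286 (56.2%) were nearer a 5′ splice site, and the difference from 58.0% did not pass (Fisher's exact test, p = 0.181). Among peaks farther than 5000 nt the share was 3415 of 5334 (64.0%), higher than beside exons (exact p = 9.56e-06, adjusted exact p = 1.49e-05).

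The sides differed in the distance of the peaks from the exon. Distance was likewise part of the rule, and neighbouring peaks were again counted singly. Downstream peaks reached a maximum of 143 per 25 nt at 76 to 100 nt, and 356 of 973 (36.6%) were centred within 100 nt of the splice site, against 175 of 705 (24.8%) upstream peaks (odds ratio 1.75, 95% interval 1.41 to 2.16, Fisher's exact test, p = 3.14e-07, adjusted exact p = 6.08e-07 over 14 comparisons added after the data were seen). Between 26 and 75 nt there were 84 and 125 downstream peaks per 25 nt against 31 and 68 upstream. The first 25 nt held 4 downstream and 2 upstream peaks, where the rule itself leaves little room, because a peak of median width 64 nt centred there would touch the exon. The nearest centre was 21 nt from the splice site and the median was 128 nt (quartiles 79 and 191). At the 250 nt limit no step was seen: 11 peaks lay in the last 2 nt inside it, with a median height of 25, and 11 in the next 2 nt beyond it, also with a median height of 25.

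**Figure D1:**
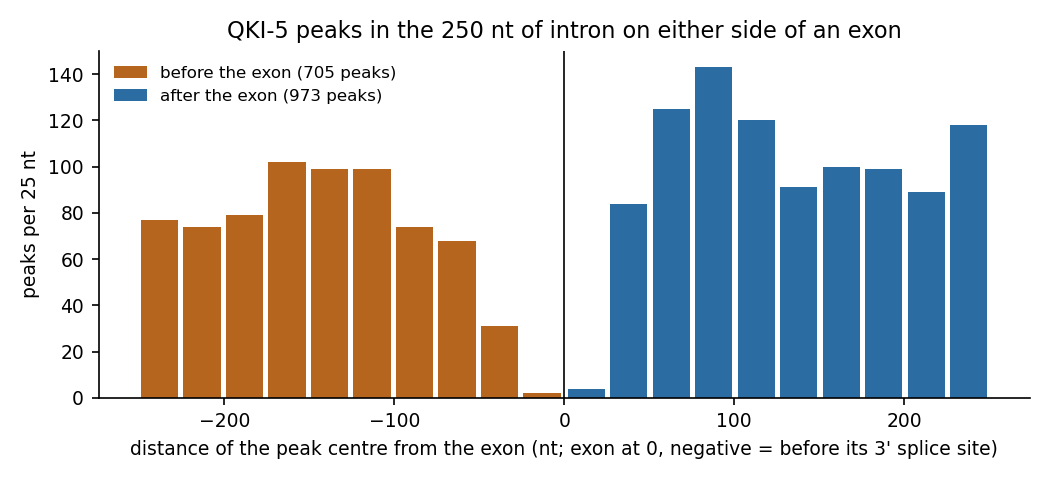
Number of peaks per 25 nt by the distance of the peak centre from the nearest exon edge, in nt, before the exon (orange, 705 peaks) and after it (blue, 973 peaks). The blue bars rise to 143 at 76 to 100 nt, while the orange bars peak at 102 between 151 and 175 nt.

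Downstream peaks were neither tall nor low as a set. Their heights ran from 6 to 471 with a median of 24 (quartiles 17 and 34), beside medians of 23 in the upstream peaks, the mid-intron peaks and the whole list. The list median of 23 or more was reached by 526 of 973 (54.1%), by 364 of 705 upstream peaks (51.6%) and by 53.4% of the whole list, and the odds ratio between the sides was 1.10 (95% interval 0.91 to 1.34, Fisher's exact test, p = 0.346). The median height was between 22 and 24 in each 50 nt step of distance. A minority stood far above: 39 downstream peaks had a height of 100 or more.

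The 15 tallest ran from 176 to 471, and 8 of them stood behind an annotated cassette exon. Cassette exons made up 221 of the 600 internal exons with a downstream peak (36.8%), counted by exon and not by peak. Whether tall peaks differed in this was not tested. EPB41L2, a protein 4.1 family member that ties the membrane to the cytoskeleton, had the tallest, behind a 63 nt cassette exon with its centre at 128 nt. NOL11, a ribosome biogenesis factor, followed with 337 behind a 234 nt exon not annotated as a cassette exon, without a QKI site. STIM1, the calcium sensor of the endoplasmic reticulum, reached 331 behind a 93 nt cassette exon, and its single ACTAAC began 134 nt from the splice site.

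Of these 15, 8 held ACTAAC and 9 held ACTAAC or ACTAAT, beside 12.6% and 17.2% of all downstream peaks. RBM5, a splicing factor, had a peak of height 303 with ACTAAC at 42 nt. NASP, a histone chaperone, had peaks of 284 and 129 side by side behind a 1017 nt cassette exon; the taller held ACTAAC at 209 nt and again a few bases on, and the lower held ACTAAT. TRIO, a guanine nucleotide exchange factor, had peaks of 207 and 199 behind the same exon, each with 1 ACTAAC. The peak of TYMS, the thymidylate synthase, reached 176 behind a 102 nt cassette exon with ACTAAC at 30 nt. SBF1, a myotubularin-related protein, reached 191 behind a 78 nt cassette exon.

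The others among the 15 were MYO18A at 214, HNRNPK, an RNA-binding protein, at 207, RNF213, a ubiquitin ligase, at 194, NAV2, a cytoskeletal regulator, at 194 and 187, and CLTC, the clathrin heavy chain, at 182. The 6 of the 15 without a QKI site were those of EPB41L2, NOL11, MYO18A, HNRNPK and RNF213 and the taller of NAV2. The lower of the NAV2 peaks and that of CLTC stood behind cassette exons of 9 and 21 nt.

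**Figure D2:**
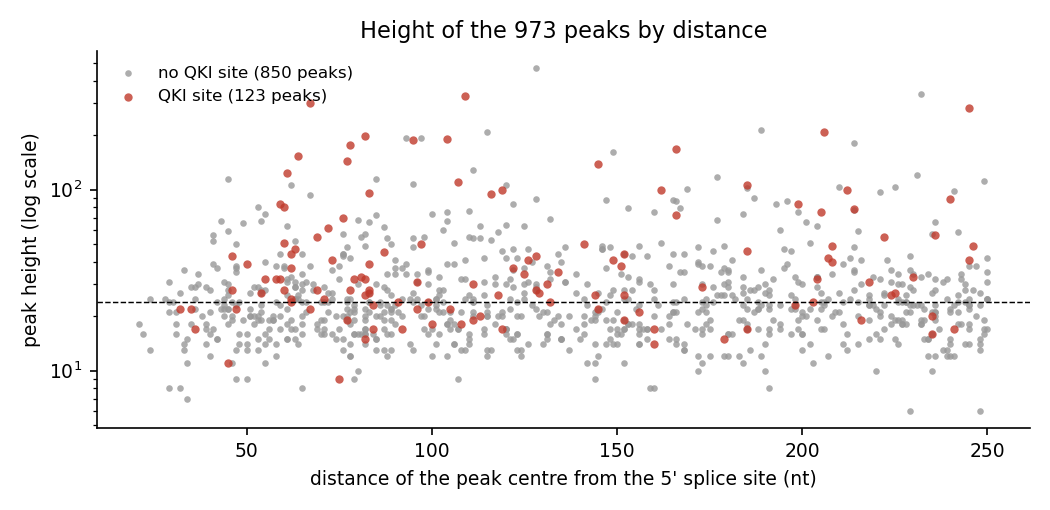
Height of each of the 973 downstream peaks (log scale) by the distance of its centre from the 5′ splice site in nt, with peaks that held ACTAAC in red (123) and the others in grey (850); the dashed line is the median of 24. Tall peaks stand at all distances from about 45 nt on, and 94 of the 123 red points have a height of 23 or more.

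The next question was how often the QKI site lay under these peaks. ACTAAC was in 123 of 973 downstream peaks (12.6%, Wilson 95% interval 10.7 to 14.9%), against 10.1% of all nuclear peaks. Windows of the same length 500 nt to the 3′ side of each peak held it in 22 of 973 (2.26%), and the site was in the peak alone 121 times and in the window alone 20 times (ratio 5.93, exact McNemar test, p = 8.25e-19, adjusted exact p = 2.48e-18). The windows were not required to stay in the intron or to be free of other peaks. For the 810 peaks whose window stayed in the same intron and off exons, the shares were 11.5% and 2.35%, with a ratio of 5.00. On the opposite strand ACTAAC was in 5 of the 973 peaks (0.51%). ACTAAT was in 48 peaks (4.93%) and 11 windows (1.13%, adjusted exact p = 1.50e-06 over 10 motifs). Either was in 167 of the 973 (17.2%), so most downstream peaks held neither.

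Peaks before exons held the site in 88 of 705 (12.5%), with an odds ratio of 1.01 (95% interval 0.76 to 1.36, Fisher's exact test, p = 0.941). Mid-intron peaks held it in 962 of 9286 (10.4%), and the odds ratio of 1.26 (95% interval 1.03 to 1.53, exact p = 0.0324, adjusted exact p = 0.0486) was no longer past the threshold with all transcripts of coding genes (1.12, exact p = 0.325) or with a limit of 500 nt (1.09, p = 0.309).

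The place of the site within the peak is given without a comparison to other positions in it. Of the 123 peaks with ACTAAC, 107 had 1 and 16 had 2, and the nearest site began within 25 nt of the centre in 101 (82.1%) and within 25 nt of the summit in 98 (79.7%). The median width of these peaks was 80 nt. Counted from the splice site, the first ACTAAC began at a median of 99 nt (quartiles 60.5 and 163, range 23 to 246). By the peak's own distance, the share with ACTAAC was highest at 51 to 100 nt, at 49 of 268 (18.3%, 14.1 to 23.3%), and lowest at 151 to 200 nt, at 17 of 199 (8.54%, 5.40 to 13.3%).

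Peaks with the site were taller. Their median height was 32 (quartiles 23.5 and 55), beside 23 (17 and 31) without it, and 94 of 123 (76.4%) against 432 of 850 (50.8%) reached the list median (odds ratio 3.10, 95% interval 2.01 to 4.79, Fisher's exact test, p = 6.64e-08, adjusted exact p = 1.55e-07). With the downstream peaks ordered by height and cut into 4 groups of like size, ACTAAC was in 5.33%, 7.82%, 14.4% and 23.0%, from the lowest to the tallest. Their width was also greater, at a median of 80 nt against 62 nt without the site. The part of width in these shares was not tested. The 8 tallest of the 16 peaks with 2 sites were those of NASP (284), SBF1 (191), KATNBL1, a katanin subunit-like protein (168), NAV2 (100), GARS1, the glycyl-tRNA synthetase (78), PTPRS, a receptor phosphatase (61), MACROD1 (55) and ALDH18A1, an enzyme of proline synthesis (51), with heights in brackets.

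A further TAAC or TAAT within 20 nt of ACTAAC was not detectably more frequent at bound than at unbound sites. It was beside 49 of 139 ACTAAC sites in downstream peaks (35.3%) and beside 87 of 302 sites under no peak in the first 250 nt of introns of the same genes (28.8%, odds ratio 1.35, 95% interval 0.88 to 2.06, Fisher's exact test, p = 0.184).

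Seen from the genome, the site was rare and mostly under no peak. Among the 52227 stretches of 250 nt behind 5′ splice sites of genes with at least 1 peak, in introns of 500 nt or more, ACTAAC was in 1633 (3.13%). A downstream peak stood in 1.33% of all stretches, in 128 of 1633 with the site (7.84%) and in 565 of 50594 without it (1.12%), an odds ratio of 7.55 (95% interval 6.19 to 9.21, Fisher's exact test, p = 4.34e-60, adjusted exact p = 3.90e-59). The share rose with the number of sites, from 1.12% (1.03 to 1.21%) at 0, to 106 of 1553 (6.83%, 5.67 to 8.19%) at 1 and 21 of 79 (26.6%, 18.1 to 37.2%) at 2. Counted site by site, whatever their number per stretch, ACTAAC was most often under a peak at 51 to 100 nt from the splice site, where 48 of 366 were (13.1%, 10.0 to 17.0%), and least often at 151 to 200 nt, where 20 of 401 were (4.99%, 3.25 to 7.58%). Over all 1714 sites 139 (8.11%) lay under a peak. How strongly each gene was transcribed is not in the list, and its part in the unoccupied sites was not tested.

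**Figure D3:**
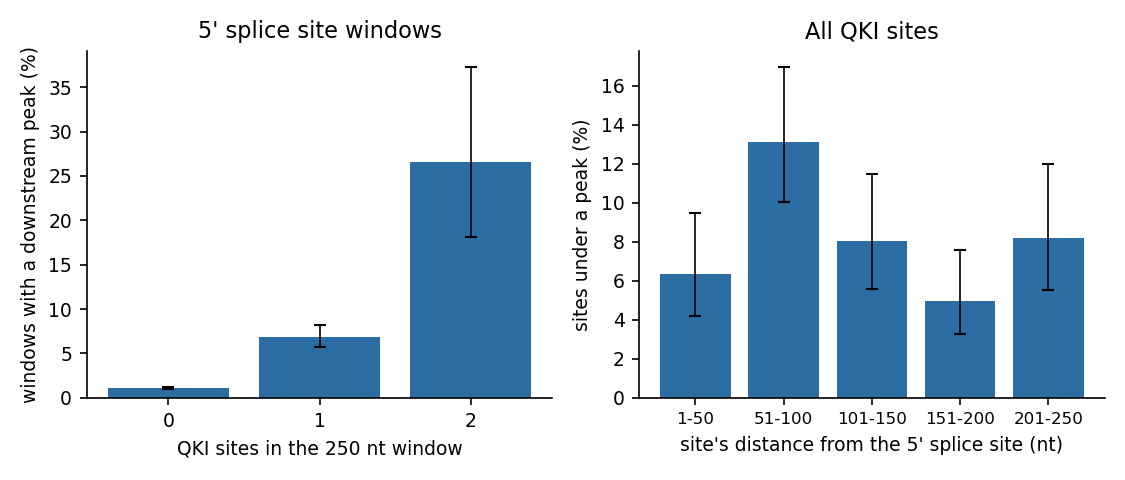
Left, share of 250 nt stretches behind 5′ splice sites that held a downstream peak, by their number of ACTAAC sites; right, share of all 1714 ACTAAC sites under a peak, by distance from the 5′ splice site in nt. Bars are shares in % with Wilson 95% intervals; the share rises from 1.12% at 0 sites to 26.6% at 2, and is highest, at 13.1%, between 51 and 100 nt.

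Motifs of other splicing factors were counted in the same peaks. Of the 10 motifs searched on the transcript's strand, 6 differed from the windows 500 nt to the 3′ side. Besides ACTAAC and ACTAAT, a run of 4 G was in 426 of 973 peaks (43.8%) against 177 windows (18.2%, adjusted exact p = 3.84e-36, exact McNemar test with adjustment over 10 motifs), and GGTGG, as bound by ESRP proteins, in 196 (20.1%) against 111 (11.4%, adjusted exact p = 3.12e-07). TTTTT was rarer in the peaks, at 69 (7.09%) against 187 (19.2%, adjusted exact p = 6.83e-16), as was TCTTT, the type bound by PTBP1, at 90 (9.25%) against 126 (12.9%, adjusted exact p = 0.0130). The RBFOX motif GCATG was in 92 peaks (9.46%) against 69 windows (7.09%, adjusted exact p = 0.0865), and the MBNL type, TGCTT or CGCTT, in 170 (17.5%) against 137 (14.1%, adjusted exact p = 0.0535). TGTGT, of the CELF type, was in 112 (11.5%) against 98 (10.1%, adjusted exact p = 0.341), and GTAAG, as in the 5′ splice site itself, in 27 (2.77%) against 41 (4.21%, adjusted exact p = 0.121). Overlapping matches of different motifs were each counted. The windows lay farther from the 5′ splice site than the peaks and had a lower median GC content (45.6% against 55.8%). The part of position and GC content in these differences was not tested. Under 12 other settings the MBNL type passed in 6, GCATG in 4, GTAAG in 4 and TGTGT in 1, while TCTTT passed in 10 and the other 5 motifs in all 12.

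Against the upstream peaks only the G run differed. It was in 243 of 705 of them (34.5%) and in 30.3% of all nuclear peaks, against 43.8% downstream (odds ratio 1.48, 95% interval 1.21 to 1.81, Fisher's exact test, adjusted exact p = 0.00123). GCATG was the nearest to the threshold of the rest, in 95 of 705 upstream (13.5%) against 9.46% downstream (adjusted exact p = 0.0588), and it passed, with the lower share downstream, when only the tallest peak of each intron end was kept (adjusted exact p = 0.0225).

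**Figure D4:**
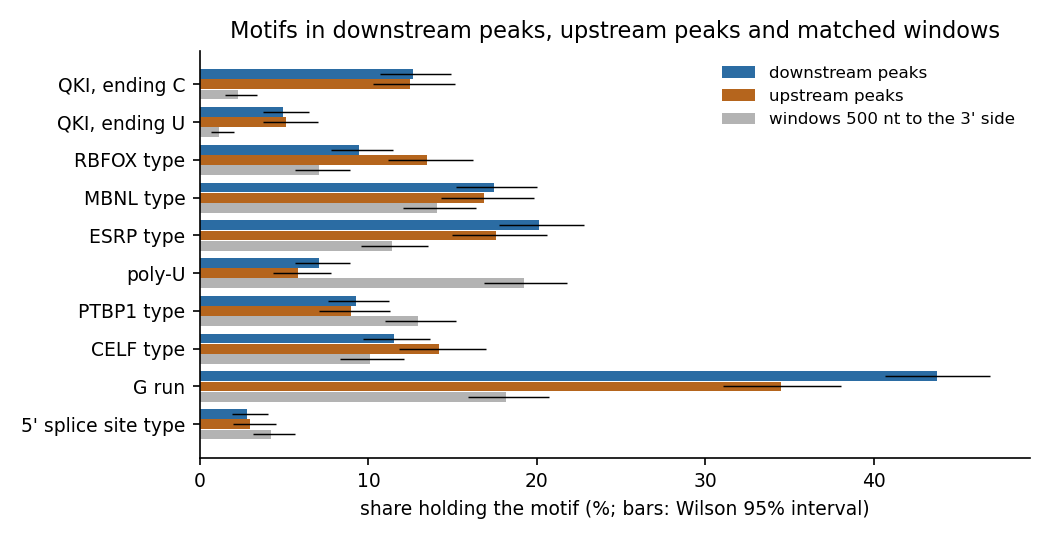
Share of downstream peaks (blue), upstream peaks (orange) and windows 500 nt to the 3′ side of downstream peaks (grey) that held each of 10 motifs, in % with Wilson 95% intervals and the order of the rows follows the text: the QKI sites ending in C and in U are ACTAAC and ACTAAT, and the G run is GGGG. The G run stands at 43.8% downstream, 34.5% upstream and 18.2% in the windows, and ACTAAC at 12.6%, 12.5% and 2.26%.

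G runs were more frequent behind first exons, but most peaks with a G run stood behind other exons. A first exon stood before 179 of the 693 stretches of 250 nt with a downstream peak (25.8%) and before 6089 of 51534 without one (11.8%, odds ratio 2.60, 95% interval 2.19 to 3.09, Fisher's exact test, p = 1.14e-23, adjusted exact p = 8.01e-23). The 232 downstream peaks behind a first exon had a median GC content of 69.1%, against 52.2% in the other 741. They held a run of 4 G in 148 (63.8%) against 278 (37.5%, adjusted exact p = 1.07e-11) and ACTAAC in 6 (2.59%) against 117 (15.8%, odds ratio 0.15, 95% interval 0.07 to 0.34, adjusted exact p = 9.51e-09). Their median heights were close, at 22 and 24. The 232 and 741 were set by 1 transcript per splice site. Leaving out first introns was broader: it dropped each site that ended a first exon in any basic coding transcript, and kept 726 downstream peaks. With first introns left out, 0 of the 10 motifs differed between downstream and upstream peaks (Fisher's exact test, 0 also at an unadjusted p under 0.05). The G run stood at 37.6% and 33.6%. Against the 3′ windows the G run still differed without first introns, at 37.6% against 17.9% (exact McNemar test, adjusted exact p = 1.82e-18).

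The hexamers with the highest ratio of shares over the 3′ windows also changed when peaks behind first exons were left out, though a G-rich one remained. Over all 973 peaks they were GGGGCG (5.55% of peaks against 0.21% of windows), GAGGGC (5.65% against 0.31%), GGGCGG (7.40% against 0.72%), GCCGCG (3.08% against 0.31%) and GCGGCG (3.08% against 0.31%). In the 741 peaks behind other exons they were ACTAAC (15.8% against 2.56%), CTAACA (11.9% against 2.02%), TACTAA (11.7% against 2.29%), ACTAAT (6.21% against 1.21%) and GGGGGC (5.26% against 1.08%). The latter list was made after the former was seen, and neither was tested.

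The exons in front of the peaks were then compared with other exons of the same genes. Internal exons with a downstream peak were annotated as cassette exons, lying wholly inside an intron of another coding transcript of the gene, in 221 of 600 (36.8%, Wilson 95% interval 33.1 to 40.8%). Exons of those genes with no peak on them or within 250 nt of them were so annotated in 1356 of 11357 (11.9%, 11.4 to 12.5%), and all internal exons of the genes in 13.7%. The odds ratio was 4.30 (95% interval 3.61 to 5.13, Fisher's exact test, p = 9.52e-52, adjusted exact p = 4.28e-51). Here and in the comparisons of exons below, no minimum intron length was set. Some exons without a peak may thus have had little room for one behind them. The part of intron length was not tested. Exons with a peak in front of them but none behind were intermediate, at 47 of 167 (28.1%, 21.9 to 35.4%), and against these the odds ratio was 1.48 (95% interval 1.02 to 2.15, exact p = 0.0433), which missed the threshold when adjusted over all 14 further comparisons (adjusted exact p = 0.0551). Exons whose downstream peak held ACTAAC were cassette exons in 50 of 114 (43.9%) and the others in 171 of 486 (35.2%), a difference that did not pass (odds ratio 1.44, 95% interval 0.95 to 2.18, adjusted exact p = 0.100).

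Peaks on both sides of an exon were more frequent than elsewhere. Of the 600 exons with a downstream peak, 60 (10.0%) also had an upstream peak, against 167 of the 11685 other internal exons (1.43%, odds ratio 7.70, 95% interval 5.67 to 10.5, Fisher's exact test, p = 3.44e-28, adjusted exact p = 4.81e-27). Of these 60, 46 (76.7%, 64.6 to 85.6%) were cassette exons. They included exons of VCL, the focal adhesion protein vinculin (204 nt), PKM, the pyruvate kinase of glycolysis (167 nt), DNM2, the GTPase dynamin 2 (139 nt), BIN1, a membrane-bending protein (24 nt), AXL, a receptor tyrosine kinase (27 nt), and CD47; these examples were chosen after the list was seen.

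Exon length showed the same contrast. Lengths that keep the reading frame, multiples of 3 nt, were found in 308 of the 600 exons (51.3%), in 4825 of the 11357 without a peak (42.5%) and in 43.1% of all internal exons of the genes (odds ratio 1.43, 95% interval 1.21 to 1.68, exact p = 2.25e-05, adjusted exact p = 4.05e-05). Among the cassette exons the shares were 145 of 221 (65.6%) against 738 of 1356 (54.4%, odds ratio 1.59, 95% interval 1.18 to 2.14, adjusted exact p = 0.00294). Among the other exons they were 163 of 379 (43.0%) against 4087 of 10001 (40.9%, odds ratio 1.09, 95% interval 0.89 to 1.34, adjusted exact p = 0.425). Whether these odds ratios differ from each other was not tested. Exons with an upstream peak alone stood at 82 of 167 (49.1%), and the odds ratio of exons with a downstream peak against them was 1.09 (95% interval 0.78 to 1.54, exact p = 0.662).

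Very short exons were frequent in front of the peaks. Exons of up to 30 nt were 40 of the 600 (6.67%, 4.93 to 8.95%), 158 of 11357 without a peak (1.39%, 1.19 to 1.62%) and 1.69% of all internal exons of the genes (odds ratio 5.11, 95% interval 3.58 to 7.28, Fisher's exact test, p = 2.27e-14, adjusted exact p = 1.06e-13). Among cassette exons alone the shares were 36 of 221 (16.3%) and 77 of 1356 (5.68%, odds ratio 3.25, 95% interval 2.13 to 4.96, adjusted exact p = 6.08e-07). Exons with an upstream peak only stood at 7 of 167 (4.19%, 2.05 to 8.40%), an interval that overlaps that of exons with a downstream peak, and this difference was not tested. The median length was 109 nt (quartiles 72 and 159) with a downstream peak and 123 nt (88 and 163) without a peak.

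The 9 nt exon of NAV2 had a peak of 187 with ACTAAC at 55 nt, and the 12 nt exon of DNM2 a peak of 139 with ACTAAC at 196 nt. CLTC had a peak of 182 behind its 21 nt exon, with ACTAAT and no ACTAAC. AFDN, the junction protein afadin, had a peak of 106 behind a 21 nt exon, PICALM, a clathrin assembly protein, one of 88 behind a 24 nt exon, and DST, a cytoskeletal linker, one of 75 behind an 18 nt exon, none of them with a QKI site. PTPRS had peaks of 72 and 61 behind a 9 nt exon, with 1 and 2 ACTAAC. INCENP, a chromosomal passenger protein named here after its values were seen, had peaks of 115 and 106 behind a 12 nt exon, the lower with ACTAAC. All of these exons were annotated cassette exons.

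**Figure D5:**
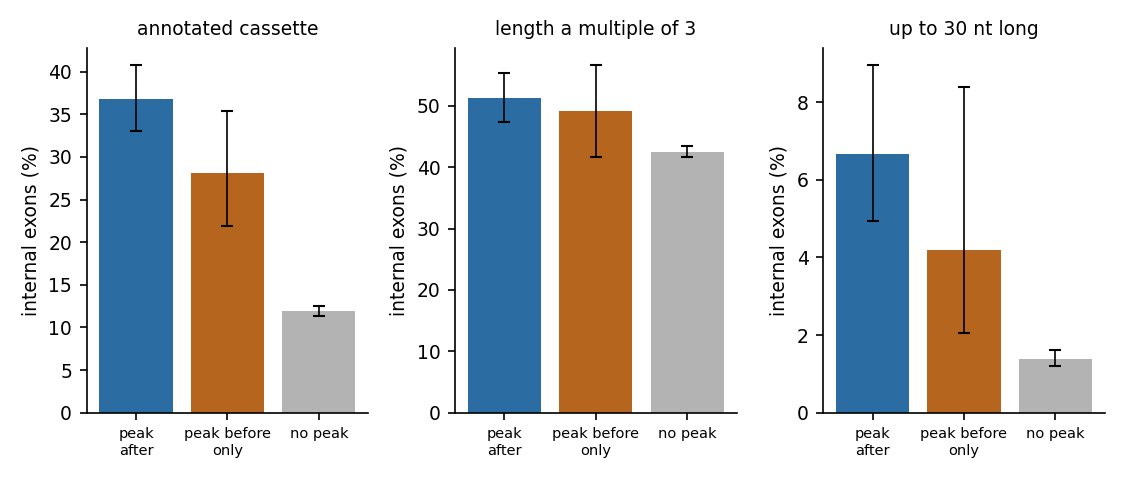
Share of internal exons, in % with Wilson 95% intervals, that were annotated cassette exons (left), had a length that is a multiple of 3 nt (middle) or were up to 30 nt long (right), for 600 exons with a downstream peak (blue), 167 with a peak before the exon only (orange) and 11357 with no peak (grey), all in genes with a downstream peak. Cassette exons made up 36.8%, 28.1% and 11.9%, and the scales of the panels differ.

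Most genes had a single downstream peak: 479 of 674 had 1, 128 had 2, 50 had 3 and 17 had 4 or more. The genes with the most were LMO7, a junction-associated scaffold, with 11 behind 6 splice sites, VPS29, a retromer subunit, with 8 behind 3, MAP4K4, a kinase of cell adhesion and migration, with 7 behind 5, DST with 6 behind 5 and, with 5 each, CIT, the citron kinase of cytokinesis (behind 2), DNM2 (4), NAV2 (4) and SPTAN1, a spectrin of the membrane skeleton (3). Their heights ran from 8 to 54 in LMO7, 9 to 51 in VPS29, 13 to 48 in MAP4K4, 9 to 39 in CIT and 9 to 66 in SPTAN1. They reached further up in DST (22 to 123), DNM2 (13 to 139) and NAV2 (20 to 194). All 8 peaks of VPS29 stood behind annotated first exons. The calls of neighbouring summits split some stretches into several peaks: 361 of the 973 (37.1%) had another peak centred within 100 nt, so peaks of a site are not separate events.

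Several groups of genes were looked at by name, with lists drawn up when earlier results of these data were known, so their shares are a description only, and the number of peaks per gene was not accounted for. Of 4542 coding genes with any peak on their strand, 674 (14.8%) had a downstream peak. Among genes of endocytosis and membrane traffic with a peak the number was 12 of 23 (52.2%), led by CLTC, DNM2 and PICALM. Among splicing factors and other RNA-binding proteins it was 12 of 33 (36.4%), led by RBM5 (303), HNRNPK (207) and HNRNPH1, which binds G runs (89). The 20 downstream peaks of the RNA-binding group had a median height of 33.5, and 2 of them held ACTAAC.

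Genes of junctions and polarity had 7 of 20 (35.0%), led by AFDN (106), CTNNA1, which is α-catenin (55), and LMO7 (54). Serine/threonine kinases had 9 of 26 (34.6%), led by ROCK1, a kinase of actomyosin contraction, with a height of 95 and ACTAAC at 99 nt, CSNK1A1 (73) and MINK1 (49). Chromatin regulators had 9 of 27 (33.3%), among them KDM5A, a histone demethylase (53), and CREBBP, an acetyltransferase (30). Genes of actin filaments and myosins had 13 of 40 (32.5%), led by MYO18A (214), FNBP1, a membrane-curving F-BAR protein (100), and MYO9B, an unconventional myosin (69).

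Genes of integrins, matrix and focal adhesions had 5 of 17 (29.4%), led by CD47 (107), TLN1, the integrin activator talin (47), and FN1, fibronectin (39); these peaks of TLN1 and FN1 stood behind first exons. Genes of TGF-β, Wnt and Hippo signalling and EMT transcription factors had 4 of 16 (25%). These were led by TEAD1, the Hippo transcription factor (104), TGFBR1, a TGF-β receptor (37), and SMAD4, which carries its signal (25), the last 2 again behind first exons.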

How the data were processed

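QKI-5 HITS-CLIP reads of mesHMLE cells were processed by the authors, who trimmed them with cutadapt 1.3, mapped them to hg19 with TopHat2 2.0.10, collapsed duplicates by molecular barcode, dropped poor alignments with SAMtools, pooled the immunoprecipitation libraries and called peaks per strand against size-matched input with MACS2 2.1.1.20160309 (tool names and versions from the submitters' processing notes). The deposited peak height is a signal, given as an integer over all pooled reads, so it is no count of a single sample. Depth per library is not given, so the precision stated is that of shares of peaks. Replicates could not be compared, since the list holds pooled values. The insert selection and the summit-wise calls bound the width of peaks and split neighbouring ones.

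Coordinates are hg19 and 1-based. GRCh37 gave the sequence, and GENCODE release 44, lifted to it, the transcripts; 0 nuclear peaks ran past a chromosome end. The authors mapped with another annotation. The 18 mitochondrial peaks were left out. Intronic peaks were classed by the nearest exon edge of basic protein-coding transcripts; of 17708, 1409 had a transcript end as that edge and 1 was at equal distance, and these were not used. Exons and windows were counted once per 5′ splice site.

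Fisher's exact test served for shares of peaks, windows or exons, the exact McNemar test for paired windows and the exact binomial test for sides, all two-sided, with Benjamini-Hochberg adjustment over the 9 single comparisons, over 10 motifs, or over 14 comparisons added after the data were seen. Odds ratios and McNemar ratios had 0.5 added to each count, and odds ratios have 95% Woolf intervals. The members, lists and tests were chosen with earlier results of these data known. Named were the peaks of 13 genes examined by RT-PCR in the study, the 15 tallest, those of the 5 genes with the most peaks, the 8 with the most ACTAAC sites, the 10 tallest behind cassette exons, the 3 leading genes of each list and the 5 leading hexamers. A few items that this rule names, sequences among them, are not reported here. Alternatives were a height filter at the list median, 1 peak per intron end, the summit, all transcripts of coding genes, limits of 100 and 500 nt, first introns or the 10 richest genes left out, other motifs, other windows and another exon background. Scripts were tested on simulated peaks. The software was Python 3.11.15, numpy 2.4.6, scipy 1.17.1, pandas 2.3.3, pysam 0.24.0 and matplotlib 3.10.9.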

Additional observations from a re-analysis of the deposited data

How the results depend on the processing

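Of 108 alternatives over 11 results, 97 kept the direction and the side of the threshold at an unadjusted p, or a number of motifs within 1.5 times. The lean to the downstream side held in all 8 (ratio 1.2 to 2.03), the gain of ACTAAC over windows in all 13 (3.92 to 16.3), its link with a peak in the 250 nt stretch in all 12 (4.14 to 15.1) and the cassette share in all 11 (1.48 to 5.77, 2 of them added after the data were seen; the lowest, against exons with an upstream peak, had p = 0.0433 in Fisher's exact test and missed the threshold when adjusted, at 0.0551). The odds ratio of ACTAAC against upstream peaks, never past the threshold, was below 1 with all transcripts (0.92), a limit of 500 nt (0.87), the 10 richest genes left out (0.98) and ACTAAC or ACTAAT (0.99). Against mid-intron peaks it missed the threshold with all transcripts (1.12) and at 500 nt (1.09). The share of lengths that are multiples of 3 did so against exons with an upstream peak (1.09). The number of motifs that differed from the 3′ windows, 6, was 6 in 4 alternatives, 7 in 3 and 8 in 5. The number that differed from upstream peaks, 1, became 2 with 1 peak per intron end or a limit of 500 nt (GGGG and GCATG), and 0 at 100 nt (1 at an unadjusted p under 0.05) or without first introns; the cause was not tested. The height comparison has no value under the height filter, which fixes it. Keeping 1 peak per intron end could not change the link with a peak in the stretch, the cassette share or the multiple-of-3 share. Each of these only asks whether a splice site has any downstream peak. Their unchanged values are counted among the alternatives that held. No paired analysis was possible because the libraries were pooled into 1 list. Peaks too low for the depth of the pool would be missed, the list does not give the transcription of each intron, repeats were not marked, and cassette status is that of the annotation, not of these cells.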

Other observations

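Counted once per downstream peak, the introns had a median length of 2749 nt (quartiles 1133 and 6816), and in 286 of the 973 cases (29.4%) the downstream peak was the only one of its intron. A peak across the 5′ splice site itself was also present for 124 of the 973 (12.7%). Some downstream peaks overlapped exons of transcripts outside the basic coding set: 172 (17.7%) lay in a retained-intron transcript, 36 (3.70%) in an exon of a transcript subject to nonsense-mediated decay and 27 (2.77%) in one without a defined coding sequence, while 721 (74.1%) overlapped no other annotated exon on their strand. Downstream peaks had a median GC content of 55.8%, against 52.5% in upstream peaks, 50.4% in mid-intron peaks and 45.6% in the windows to the 3′ side. Those with ACTAAC stood at 45.8% and those without at 57.5%.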
